A study of Mus musculus with 4 samples.

Results

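The genes described here were 6 that are known from quiescent muscle stem cells: Cd34, Chodl, Tenm4, Cdh15, Apoe and Asb5. They were taken by gene symbol, as 6 of the 31055 features of each library, and followed through all 4 libraries for their level, the share of cells with a transcript and what was left after activation. Muscle stem cells, or satellite cells, had been sorted by green fluorescence from mice of the strain Tg:Pax7-nGFP, aged 2 to 4 months, in which a nuclear GFP under Pax7 control marks the cells. All 4 groups carried this transgene. Extraocular muscle (EOM), the muscle of eye movement, and tibialis anterior (TA), which lies along the shin, each gave a library of quiescent and a library of activated cells. Activation meant 4 days of culture in growth medium, on Matrigel and under 3% oxygen. Transcripts were counted cell by cell on a droplet platform. With 1 library in each group no test between groups was possible. Every interval below is a 95% interval that covers counting error only, and a difference between groups cannot be told apart from a difference between libraries.

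Satellite cells lie between the muscle fibre and its basal lamina, and in undamaged muscle they are held out of the cell cycle. After injury or in culture they activate, multiply as myoblasts and then differentiate and fuse. Their resting state is commonly recognised by proteins at the cell surface, which allow the cells to be sorted and to hold on to the fibre. Cd34 encodes a sialomucin of the cell surface, Chodl (chondrolectin) a transmembrane C-type lectin, and Tenm4 a teneurin, a large transmembrane protein that binds adhesion receptors on neighbouring cells. Cdh15 encodes M-cadherin, which joins satellite cells to the fibre and myoblasts to each other, and Apoe encodes apolipoprotein E, a secreted carrier of lipids. Asb5 is neither a surface nor a secreted protein by its known role: it is an intracellular SOCS box protein of the kind that brings substrates to cullin 5 ubiquitin ligases. The label of surface and secreted markers therefore suits 5 of the 6 genes.

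After filtering, 3594 EOM and 2908 TA cells remained in the quiescent libraries, with medians of 4662 and 5038 transcript counts (unique molecular identifiers, UMIs) per cell. The activated libraries kept 5563 EOM and 4281 TA cells with medians of 21261 and 23383 UMIs. Between 5 and 12 cell barcodes were shared by any pair of libraries. More than 10% mitochondrial UMIs were found in 40.5% of the quiescent TA barcodes against 11.7% in quiescent EOM, and in 20.9% and 24.7% of activated EOM and TA barcodes. The 10 markers of muscle stem cells were all detected in each library. Of the markers of differentiating muscle, 10 of 12 were at 20 CPM or more in each activated library and 1 of 12 in each quiescent library. Levels are given in CPM, the UMIs of a gene per 1000000 UMIs of a library's kept cells, a scale that allows for the unequal depth.

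The 6 genes lie on chromosomes 1 (Cd34, 194938819 to 194961279, plus strand), 16 (Chodl, 78930948 to 78951733, plus), 7 (Tenm4, 96171246 to 96911093, plus, and Apoe, 19696109 to 19699188, minus) and 8 (Cdh15, 122847966 to 122867397, plus, and Asb5, 54529580 to 54587842, plus), in GENCODE vM21 on GRCm38. All are protein coding. The antisense genes that overlap Cd34, Tenm4 and Asb5 were at 2.28 CPM or less in every library. Spcs3, on the opposite strand, overlaps the first exon of the Asb5 model that starts farthest upstream and was at 38.9 to 74.1 CPM. The assignment of reads there was not examined. To show what stands in front of genes that were nearly silent in activated cells and of genes that were still counted there, 4 promoters from RefSeq (GRCm38.p6) are printed from 150 bases before to 30 bases after the start site, 5′ to 3′ on the gene's strand, with every CANNTG, the E-box to which myogenic factors can bind, in capitals. The RefSeq start nearest to the GENCODE start was used, which for Asb5 is the start of the model that reaches the 3′ end of the gene, downstream of that first exon. Chodl (chr16:78930798-78930977, plus strand) and Apoe (chr7:19699159-19699338, minus strand) had the steepest falls on activation in both muscles, and Cdh15 (chr8:122848224-122848403, plus strand) and Asb5 (chr8:54550181-54550360, plus strand) had the smallest changes.
Chodl: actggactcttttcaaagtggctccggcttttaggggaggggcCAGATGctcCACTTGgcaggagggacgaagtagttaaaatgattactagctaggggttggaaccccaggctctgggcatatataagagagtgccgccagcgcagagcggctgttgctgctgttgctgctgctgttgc
Apoe: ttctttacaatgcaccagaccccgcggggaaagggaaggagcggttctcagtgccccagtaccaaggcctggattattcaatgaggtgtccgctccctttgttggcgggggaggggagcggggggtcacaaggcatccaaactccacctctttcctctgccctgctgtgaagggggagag
Cdh15: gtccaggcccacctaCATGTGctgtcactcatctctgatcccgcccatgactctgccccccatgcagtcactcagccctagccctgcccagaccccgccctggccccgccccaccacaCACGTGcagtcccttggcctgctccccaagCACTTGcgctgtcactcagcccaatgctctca
Asb5: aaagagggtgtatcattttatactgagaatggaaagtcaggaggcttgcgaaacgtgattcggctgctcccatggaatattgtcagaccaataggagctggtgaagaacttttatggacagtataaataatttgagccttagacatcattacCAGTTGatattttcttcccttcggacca
The windows held 2 E-boxes for Chodl, 0 for Apoe, 3 for Cdh15 and 1 for Asb5, and those of Cd34 and Tenm4, not printed, held 0 and 2. An E-box of any kind was found in 54.1% of 32851 mouse promoter windows of this length, so 4 of 6 is near the common share. The form CAGCTG was in 0 of the 6 windows and in 10.4% of all. TATAAA, searched on both strands, was present in 2 copies in front of Asb5 (8.37% of all windows have it) and GGGCGG in 3 copies in front of Cdh15 (31% of all). The E-boxes overlapped neither of these motifs. A match is a string of letters, and nothing was measured at these sites.

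Activation was the main axis along which these genes varied. Of the 6, 5 were at least 2-fold lower in activated than in quiescent EOM cells, where 24.4% of 6420 genes were lower by that much (all genes that reached 20 CPM in at least 1 of the libraries compared). The count was 5 of 6 in TA too, against 24.6% of 6304 genes. The exception in both muscles was Cdh15. None was at least 2-fold higher (0 of 6 in each muscle, against 27.5% and 30.5% of all genes). Cd34, Chodl and Apoe were at least 100-fold lower in each muscle, a fall shared by 1.67% of genes in EOM and 1.86% in TA. Tenm4 made 4 of 6 genes at least 10-fold lower in EOM, against 6.48% of all, and with Asb5 as well the count was 5 of 6 in TA, against 6.84%. The median log2 ratio (with 1 CPM added to each level) of the 6 was -5.29 in EOM and -5.27 in TA, and over all genes it was 0.14 and 0.21. The 6 genes were picked as quiescence genes with their fall in view, so these counts describe them and support nothing further.

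**Figure D1:**
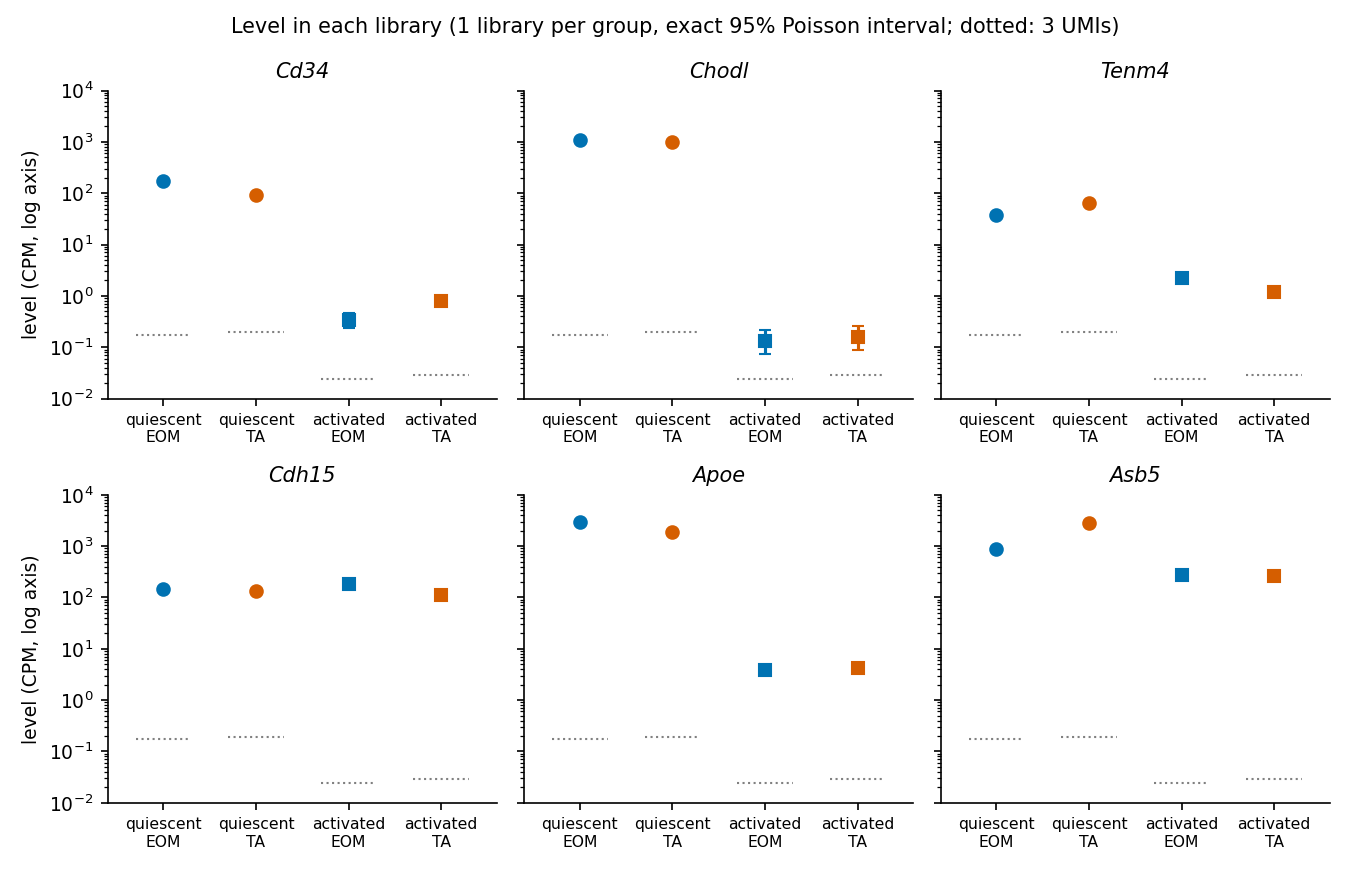
Level of each gene in CPM (log axis) in the quiescent (circles) and activated (squares) libraries of EOM (blue) and TA (orange), 1 library per group, with exact Poisson intervals that are mostly smaller than the symbols; dotted lines mark 3 UMIs over the library. Chodl falls from 1069 and 994 CPM to 0.13 and 0.156, while Cdh15 stays between 112 and 185 CPM.

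Chodl showed the steepest fall of the 6 genes. The lectin's transcript was at 1069 CPM in quiescent EOM (1054 to 1084), 994 in quiescent TA (979 to 1010), 0.13 in activated EOM (0.0745 to 0.212) and 0.156 in activated TA (0.0894 to 0.254). Both quiescent libraries were thus high and both activated ones close to nothing, and the intervals of the 2 activated libraries overlapped. The level was 8199-fold lower in activated EOM (5047 to 14347) and 6356-fold lower in activated TA (3913 to 11124), which ranked 6 among the 6420 EOM ratios from the lowest and 14 among 6304 in TA. The activated counts behind these folds were 16 UMIs in each library, found in 13 cells of each. At full depth, 95% of EOM and 95.3% of TA cells held Chodl at rest, and 0.234% and 0.304% did after culture, although activated cells had over 4 times the UMIs.

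Apoe, the secreted lipid carrier, was at 2937 CPM in quiescent EOM (2912 to 2963), 1846 in quiescent TA (1824 to 1867), 3.92 in activated EOM (3.58 to 4.29) and 4.3 in activated TA (3.91 to 4.72). The order of the quiescent muscles, EOM above TA, was not seen after culture, where the intervals overlapped. It was 749-fold lower on activation in EOM (685 to 822) and 429-fold in TA (391 to 473). Apoe is also made by macrophages, mural cells and glia. Macrophage markers summed to 5.84 CPM in quiescent EOM, with 8 of 10 at 0, among them Csf1r and C1qa. In quiescent TA they summed to 25.7 CPM, and 9 of 10 were detected, with Lyz2 highest at 11.1 CPM. Ptprc had no UMI in any library. The 7 glial markers summed to 8.88 and 15.8 CPM with at most 1 at 0. The 9 mural and smooth muscle markers summed to 453 CPM in quiescent EOM (1 at 0, Myh11), 272 in quiescent TA, 2104 in activated EOM and 1201 in activated TA, led by Acta2 in 3 of the 4 libraries. The part of these markers in the Apoe difference between quiescent muscles was not tested.

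Cd34, the sialomucin used to sort satellite cells, was at 172 CPM in quiescent EOM (166 to 178), 90.3 in quiescent TA (85.6 to 95.2), 0.334 in activated EOM (0.24 to 0.453) and 0.811 in activated TA (0.646 to 1.01). EOM was the higher muscle at rest. Both activated levels were near nothing and did not exceed those of damaged barcodes, given with the free RNA, so no order of the muscles is read after culture. It was 515-fold lower on activation in EOM (378 to 719) and 111-fold in TA (89.1 to 141). In activated EOM the 41 Cd34 UMIs lay in 41 different cells, and in activated TA the 83 lay in 77. Endothelial and fibroblast-like cells make Cd34 too. The 10 endothelial markers summed to 46.4 CPM in quiescent EOM, 40.2 of it Tek, with Kdr, Emcn, Flt1 and Ptprb at 0, and to 21.9 in quiescent TA, 8.25 in activated EOM and 6.01 in activated TA. Cdh5, which defines endothelium, had 1 UMI in quiescent EOM and 6 in quiescent TA. Of the 10 fibroblast markers, which summed to 1226, 1370, 192 and 119 CPM with Gsn highest throughout, Pdgfra was at 0.229, 0.0651, 0.0978 and 0.147 CPM and Dcn at 38.3, 24, 0.0163 and 0.0196. Their part in the fall of Cd34 was not tested.

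Tenm4 had lower counts. The teneurin was at 37.4 CPM in quiescent EOM (34.6 to 40.4), 64.4 in quiescent TA (60.5 to 68.6), 2.27 in activated EOM (2.01 to 2.56) and 1.21 in activated TA (1.01 to 1.45). Here TA was the higher muscle at rest, and the activated levels, again, did not exceed those of damaged barcodes. It was 16.4-fold lower on activation in EOM (14.3 to 19) and 53.2-fold in TA (44.1 to 64.6), so that 6.08% of the quiescent level was left in EOM and 1.88% in TA.

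Asb5, the ubiquitin ligase adaptor, was partly kept. Its level was 894 CPM in quiescent EOM (880 to 909), 2805 in quiescent TA (2778 to 2832), 272 in activated EOM (269 to 274) and 263 in activated TA (259 to 266). Quiescent TA stood far above the other libraries, and the activated libraries were nearly level with each other. It was 3.29-fold lower on activation in EOM (3.23 to 3.36) and 10.7-fold in TA (10.5 to 10.8). The mean number of Asb5 UMIs per cell, without scaling to the total, went from 4.35 to 5.99 in EOM and from 14.8 to 6.27 in TA. On that scale Asb5 was higher in activated than in quiescent EOM cells, while the median of all genes was higher by 2.33 in log2 terms, so its fall is one relative to a larger total.

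Cdh15, M-cadherin, stayed within 2-fold in every comparison. It was at 148 CPM in quiescent EOM (143 to 154), 132 in quiescent TA (126 to 138), 185 in activated EOM (182 to 187) and 112 in activated TA (110 to 114). The ratio of activated to quiescent cells was 1.24 in EOM (1.2 to 1.3) and 0.848 in TA (0.809 to 0.889). In log2 terms these were 0.31 and -0.24, and the latter turned to 0.04 with TMM scaling, which moved the median of all genes from 0.22 to 0.50 in TA and from 0.15 to 0.55 in EOM. Among all genes the ratio ranked 3518 of 6420 from the lowest in EOM and 2463 of 6304 in TA, within the middle of the range. In UMIs per cell Cdh15 went from 0.72 to 4.07 in EOM and from 0.697 to 2.68 in TA.

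The share of cells with a UMI was read next. Each cell was thinned to 2000 UMIs so that shallow quiescent and deep activated cells could be compared, which left out 82 and 57 shallower cells of quiescent EOM and TA and 31 and 47 of activated EOM and TA. Chodl was found in 82.2% of cells in quiescent EOM (80.9 to 83.5), 80% in quiescent TA (78.5 to 81.5), 0.0542% in activated EOM (0.0112 to 0.158) and 0.0236% in activated TA (0.000598 to 0.132). For Apoe the shares were 94%, 86.7%, 0.687% and 0.709%, for Cd34 26%, 15.8%, 0.0542% and 0.118%, and for Tenm4 7.49%, 12.1%, 0.597% and 0.142%, in the same order. The last 2 genes were therefore missed in most quiescent cells at this depth. Cdh15 was seen in 24.3%, 23%, 29.2% and 19.1% of cells, and Asb5 in 53%, 81.7%, 40% and 37.7%. The share was at least 2-fold lower after activation for 4 of 6 genes in EOM, against 22% of genes, and for 5 of 6 in TA, against 22.5%. Without thinning, Asb5 was in 69.4%, 90.1%, 94.3% and 95.3% of cells and Cdh15 in 45.4%, 44.4%, 90.3% and 79.4%, with the depths as unequal as stated.

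**Figure D2:**
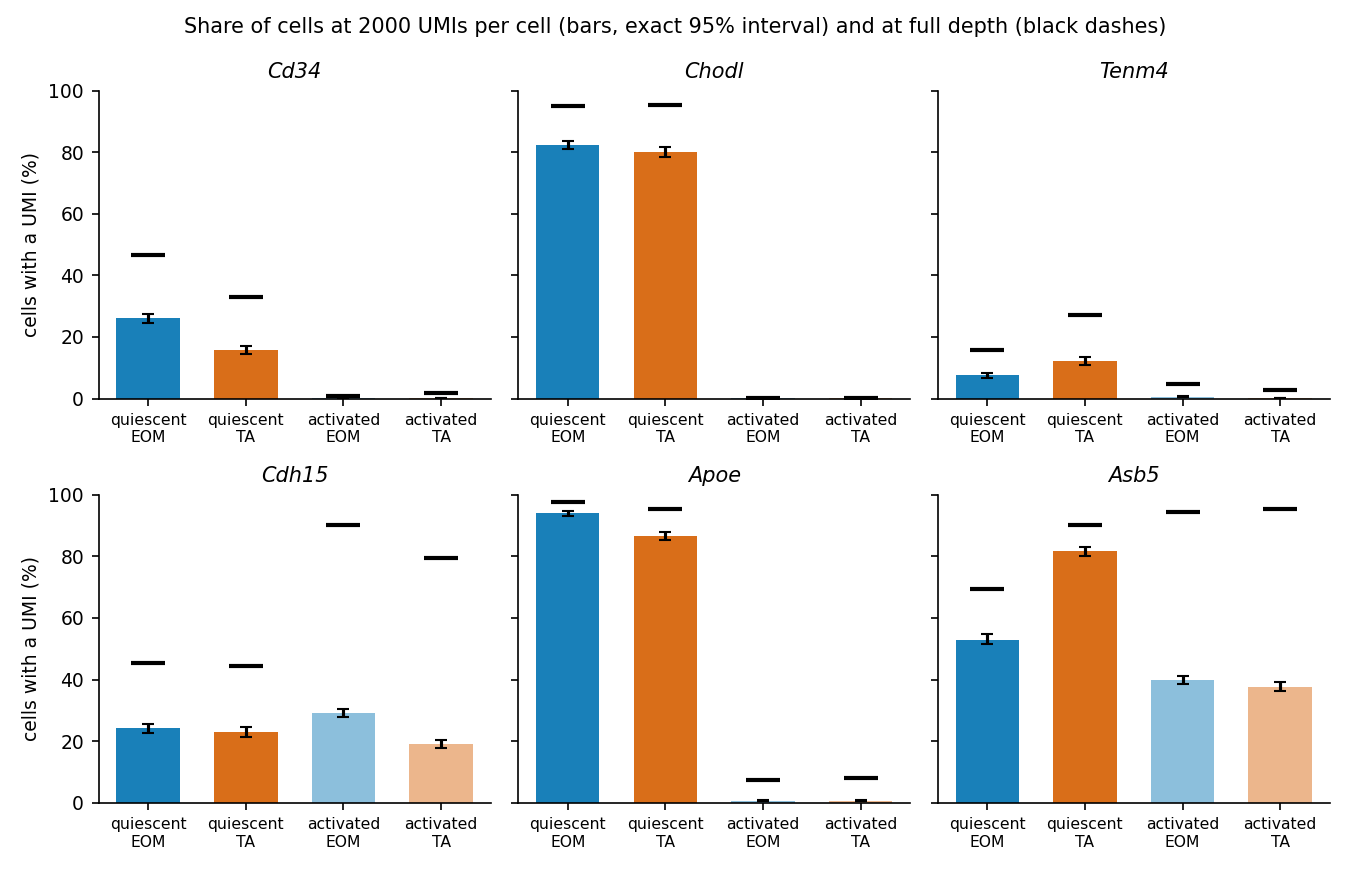
Percent of cells with at least 1 UMI of each gene in the 4 libraries (EOM blue, TA orange, activated paler), as bars for cells thinned to 2000 UMIs with exact binomial intervals and as black dashes at full depth. Chodl and Apoe are seen in 80% to 94% of thinned quiescent cells and in under 1% of activated ones, whereas Cdh15 ranges from 19.1% to 29.2%.

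Free RNA was measured in cells of another type and in damaged barcodes. By the clustering rule used, a cluster of another type was named in quiescent TA only. Without doublet removal, cells of both quiescent libraries were left out as non-muscle, so this does not show that quiescent EOM held none. The 13 endothelial-like cells of quiescent TA at 2000 UMIs or more had a median of 7804 UMIs against 5071 in the muscle cells. A UMI of Chodl or of Asb5 was in 38.5% of them (13.9 to 68.4) and one of Apoe in 61.5% (31.6 to 86.1), so the muscle cells' shares of 80%, 81.7% and 86.7% lay above these intervals, for Apoe by little. Tenm4 and Cdh15 were in 0 of the 13 cells, a count that permits a share of up to 24.7%. The muscle cells' shares of 12.1% and 23% did not exceed that limit. Cd34 was in 38.5% of the endothelial-like cells, which make it themselves. Barcodes with more than 50% mitochondrial UMIs gave the other measure, here as CPM of the non-mitochondrial UMIs. In such barcodes the RNA of the broken cell and free RNA cannot be told apart. Quiescent EOM had 9 of them, too few to read. In the 75 of quiescent TA, Apoe was at 436 (249 to 708), Asb5 at 1498 (1128 to 1950) and Chodl at 654 (419 to 973), below the 2003, 3043 and 1079 of the kept cells. Tenm4 was at 191 (76.6 to 393) and Cdh15 at 218 (94.1 to 429), not below the 69.9 and 143 of the kept cells, and Cd34 had no UMI. After activation, Chodl was at 2.86 (0.347 to 10.3) in 1277 such EOM barcodes and at 0.139 in the kept EOM cells, and Apoe at 17.2 (8.88 to 30) and 4.18. In TA, 1153 such barcodes gave 1.17 (0.0296 to 6.52) for Chodl, against 0.167 in the kept cells, and 5.85 (1.9 to 13.7) for Apoe, against 4.59. Cd34 was at 1.43 (0.0363 to 7.98) in damaged and 0.356 in kept EOM cells, and at 1.17 (0.0296 to 6.52) and 0.865 in TA. Tenm4 was at 10 (4.03 to 20.7) and 2.42 in EOM and at 5.85 (1.9 to 13.7) and 1.29 in TA. The kept activated cells thus did not exceed damaged barcodes in Chodl, Apoe, Cd34 or Tenm4, and no expression is read from their few UMIs. For these genes the damaged barcodes themselves held 1 to 12 UMIs, too few to tell free RNA from expression. Cdh15 was also higher in damaged barcodes, at 316 (276 to 361) against 197 in EOM and 231 (200 to 265) against 119 in TA. The part of free RNA in the activated Cdh15 levels, and in their differences between stages and muscles, was not tested. Asb5 was lower in damaged barcodes, at 218 (184 to 255) against 290 and 210 (180 to 243) against 280.

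Most quiescent cells held UMIs of several of these genes. At full depth Chodl was in 95% of EOM and 95.3% of TA cells at rest, and Apoe in 97.8% and 95.4%. With such separate shares most cells hold 2 of the genes even where these vary independently, so the counts below do not show a link between them. At full depth, UMIs of at least 2 of Cd34, Chodl, Tenm4 and Apoe were found in 95.9% of EOM cells and 94.8% of TA cells at rest. After activation the share was 0.611% in EOM (34 cells) and 0.631% in TA (27 cells). At least 3 of the 4 genes were seen in 52.9% and 47.1% of quiescent cells and in 0 activated cells of either muscle. The few activated cells with a UMI held Pax7, the transcription factor of satellite cells, more often than the average cell: 12 of 13 Chodl cells in EOM and 9 of 13 in TA, against 56.9% and 52.5% of all cells. Those cells were also deeper, with medians of 27064 and 24023 UMIs against 21261 and 23383, and the part of depth was not tested.

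The question of what was left in cells of different stages was addressed by sorting activated cells by their UMIs of Myog, Mymk and Mymx, which drive differentiation and fusion, counted in cells thinned to 2000 UMIs. In EOM, 2907 cells had such a UMI and 2625 had none, and in TA 2786 and 1448. Chodl, Cd34, Apoe and Tenm4 remained near their low level in all stages. Apoe was at 4.96 CPM in EOM cells without differentiation UMIs and at 2.9 in those with them, a ratio of 0.584 (0.483 to 0.705), and at 6.11 and 3.29 in TA, a ratio of 0.539 (0.445 to 0.653). Cd34 had ratios of 0.357 (0.161 to 0.733) and 0.388 (0.243 to 0.613), on 0.496 and 1.34 CPM in the undifferentiated cells. These levels did not exceed the intervals of damaged barcodes, where RNA of the broken cell and free RNA cannot be told apart. Whether the ratios reflect expression was not tested.

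Cdh15 was lower, by less than 2-fold, in cells with more differentiation UMIs in both muscles. In EOM it was at 208 CPM in cells with no such UMI, 197 with 1, 177 with 2 to 3 and 148 with 4 or more. In TA the levels were 125, 112, 106 and 101 CPM. Of the stages compared, the highest level was in undifferentiated cells that also held a Pax7 UMI, at 231 CPM in EOM (545 cells) and 155 in TA (229 cells). Damaged barcodes held more Cdh15 than kept cells in both muscles, and the part of free RNA in this order was not tested. Asb5 had 308, 298, 258 and 213 CPM along the EOM stages and 275, 277, 253 and 248 along those of TA. Both genes were at 20 CPM or more and neither (0 of 2) differed by 2-fold between cells with and without these UMIs, where 6.35% of genes were higher and 4.67% lower in EOM and 3.54% and 1.07% in TA.

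**Figure D3:**
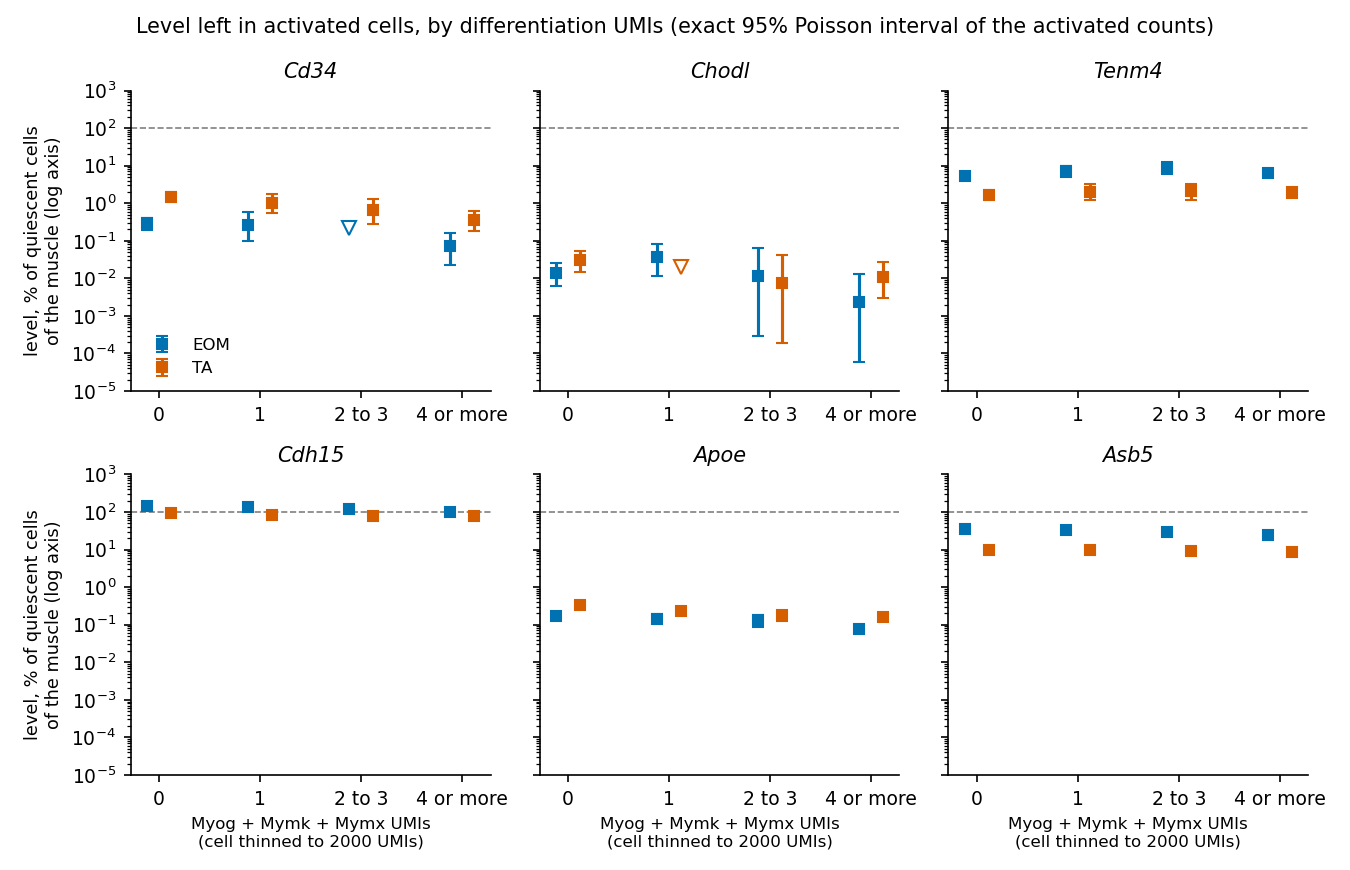
Level in activated cells as a percentage of the quiescent library of the same muscle (log axis, dashed line at 100%), for cells with 0, 1, 2 to 3 or 4 or more UMIs of Myog, Mymk and Mymx at 2000 UMIs per cell, with Poisson intervals of the activated counts; open triangles mark bins without a UMI, drawn at 3 UMIs. Cdh15 lies between 76.5% and 140% in all bins, and Chodl at 0.0361% or less in every bin where it had a UMI.

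Cdh15 and Asb5 differed little with proliferation. In EOM cells with a UMI of Mki67 or Top2a, 2 genes of dividing cells, Cdh15 was at 198 CPM against 170 in the others (ratio 1.17, 1.14 to 1.2) and Asb5 at 283 against 259 (1.09, 1.07 to 1.12). In TA the ratios were 1.07 (1.03 to 1.11) for Cdh15 and 0.959 (0.936 to 0.982) for Asb5.

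Between the muscles, quiescent cells differed by 2-fold in Asb5 alone. It was 3.14-fold lower in EOM (3.08 to 3.19), so 1 of 6 genes was lower by that rule, against 2.6% of 5418 genes, and 0 of 6 were higher, against 2.97%. Cd34 was 1.9-fold higher in EOM (1.79 to 2.03). Its log2 ratio of 0.92 was 0.79 with TMM or median-of-ratios scaling, 0.50 in cells with at most 5% mitochondrial UMIs, and 1.02, past the rule, in cells with 5% to 8% (chosen after seeing the data). Apoe was 1.59-fold higher in EOM (1.57 to 1.61) and Tenm4 0.58 times the TA level (0.525 to 0.641). Cdh15 had a ratio of 1.12 (1.06 to 1.19) and Chodl one of 1.08 (1.05 to 1.1), a log2 ratio of 0.10 that turned to -0.02 with TMM and -0.03 with median-of-ratios scaling. By the 2-fold rule only Asb5 differed. From the lowest of the 5418 ratios, Cd34 ranked 5227, Apoe 5054, Cdh15 3423, Chodl 3034 and Tenm4 233. With 1 library per muscle the smaller differences are not read as differences between muscles.

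Asb5 also differed in how it was spread over cells. At 2000 UMIs per cell, 47% of quiescent EOM cells had no Asb5 UMI, 20.6% had 1 and 2.56% had 10 or more. In quiescent TA 18.3% had none, 14% had 1 and 20.1% had 10 or more. With the same mean and equal cells, 18.7% of EOM and 0.436% of TA cells would have been empty, so Asb5 varied among cells by more than sampling gives, with a variance of 4.71 and 6.59 times the mean. Apoe had variances of 4.49 and 3.54 times the mean, Chodl 1.55 and 1.62, and Cd34, Tenm4 and Cdh15 from 1.05 to 1.25 times. The quiescent TA library had the larger share of barcodes over 10% mitochondrial UMIs. Within it, Asb5 was at 2726 CPM in cells at or under the median mitochondrial share and 2887 in those above, and in quiescent EOM at 923 and 866. It also moved with depth, from 733 to 994 CPM between the shallower and the deeper cells of quiescent EOM and from 2348 to 3076 in TA, and the part of depth in its spread was not tested.

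**Figure D4:**
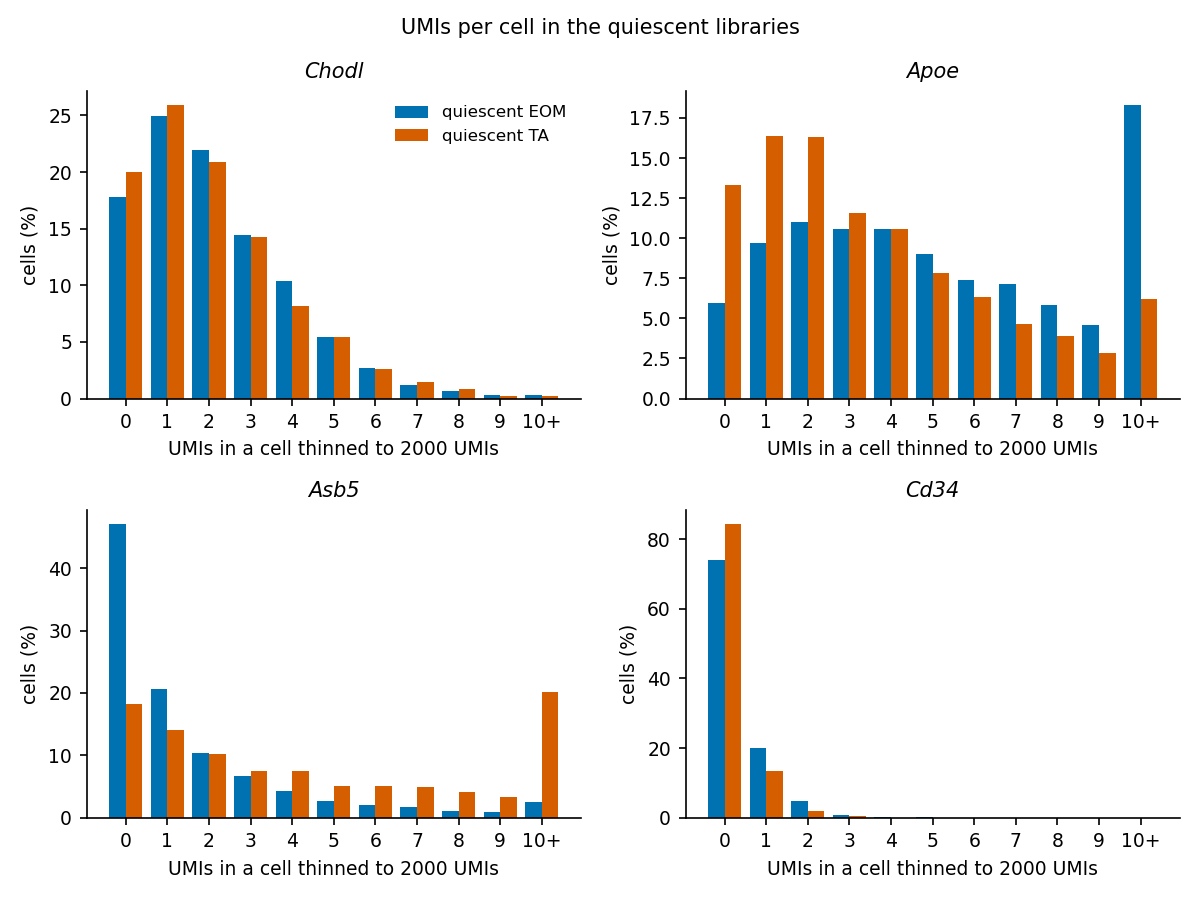
Percent of cells (vertical axis, own scale in each panel) by the number of UMIs of Chodl, Apoe, Asb5 and Cd34 in quiescent EOM (blue) and TA (orange) cells thinned to 2000 UMIs, with 10 or more in the last bin. The Chodl distributions coincide closely, while 20.1% of TA and 2.56% of EOM cells reach 10 Asb5 UMIs.

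Quiescent cells were also split by Pax7 and by Myod1, the determination factor that rises on activation, again at 2000 UMIs per cell. Cd34, Chodl, Tenm4, Cdh15 and Apoe had ratios above 1 in cells with a Pax7 UMI in both muscles, and Asb5 was below 1 in both. The share of all genes above 1 is not given, so this describes the 6 genes only. Cdh15 was at 169 CPM in EOM cells with Pax7 and 136 in those without (ratio 1.25, 1.15 to 1.35), and at 159 and 110 in TA (1.45, 1.32 to 1.58). Asb5 was at 667 and 1045 CPM in EOM (0.638, 0.616 to 0.661) and at 2180 and 3361 in TA (0.649, 0.636 to 0.662). The ratios of the others lay between 1.06 (Cd34 in EOM, 0.987 to 1.14) and 1.36 (Chodl in TA, 1.31 to 1.4). In cells with a Myod1 UMI the picture was the reverse for Asb5, with 1339 against 834 CPM in EOM (1.61, 1.54 to 1.67) and 3127 against 2534 in TA. Apoe was lower in those cells, at 2094 against 3060 CPM in EOM (0.685, 0.664 to 0.706) and 1745 against 1942 in TA. None of the 6 reached 2-fold in either split. Of all genes at 20 CPM, 0.0371% were higher and 0.111% lower by that rule with Pax7 in EOM, and 0.578% and 0.231% in TA. With Myod1 it was 0.184% higher and 0.165% lower in EOM, and 0.078% higher and 0.078% lower in TA. Median depths were alike in EOM (4698 UMIs with Pax7 and 4690 without) and slightly lower with Pax7 in TA (4920 and 5206). Myod1 itself was at 150 CPM in quiescent EOM and 1190 in quiescent TA, where it was as high as in activated TA (1194). Asb5 was higher in TA than in EOM both among cells with Myod1 and among those without, by the levels just given.

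**Figure D5:**
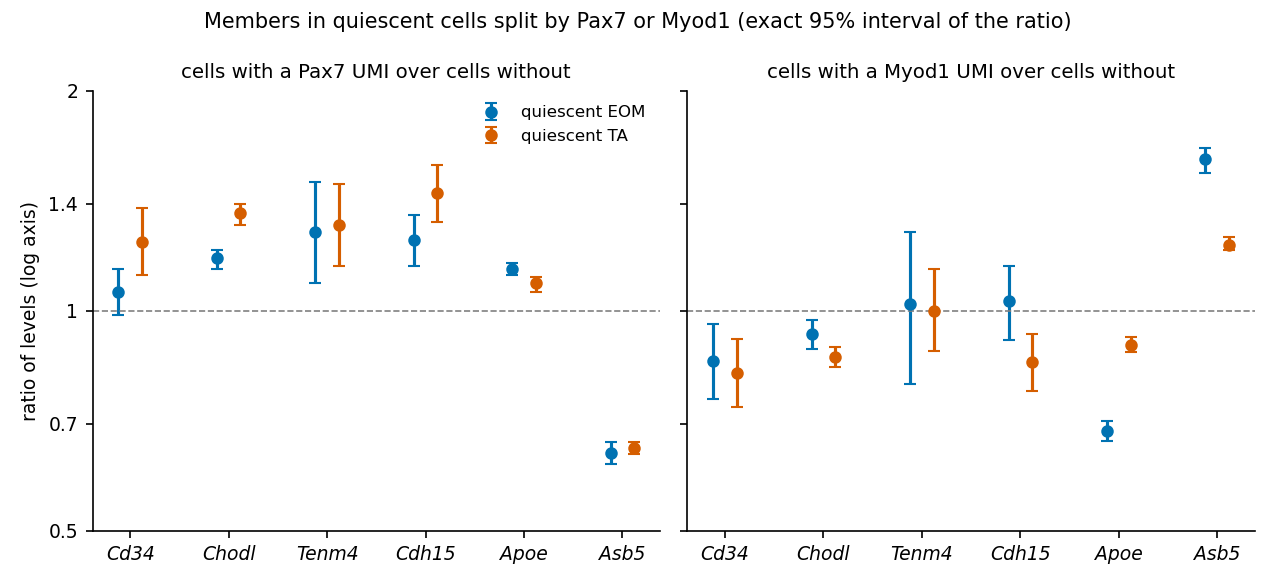
Ratio of the level (log axis) in quiescent cells with a UMI of Pax7 (left) or Myod1 (right) to that in cells without, for each gene in EOM (blue) and TA (orange), with exact intervals of the ratio. Asb5 lies below 1 for Pax7 (0.638 and 0.649) and above 1 for Myod1 in both muscles.

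After activation the muscles could be compared by the 2-fold rule for 2 genes only, Cdh15 and Asb5, since the other 4 were under 20 CPM. Neither passed: 0 of 2 were higher in EOM, against 2.06% of 5301 genes, and 0 of 2 lower, against 0.924%. Cdh15 was 1.65-fold higher in EOM (1.61 to 1.69). This was also the size of its difference among undifferentiated cells (1.65, 1.6 to 1.71), and it was 1.55 among those with differentiation UMIs (1.5 to 1.6). Cdh15 did not exceed damaged barcodes in either muscle, and the part of free RNA in its difference was not tested. Asb5 was at a ratio of 1.03 (1.02 to 1.05), or -0.02 in log2 terms with median-of-ratios scaling. On a few UMIs, Cd34 in activated EOM was 0.412 times the TA level (0.276 to 0.606), Tenm4 1.88-fold higher (1.51 to 2.34), Apoe 0.911 times (0.799 to 1.04) and Chodl 0.833 times (0.39 to 1.78). The intervals of Apoe and Chodl included equality, and none of the 4 exceeded damaged barcodes, so no muscle difference in expression is read from them.

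Other genes that belong to the same pathways were read from lists. Their counts stand beside the 24.4% of genes lower and 27.5% higher in EOM and the 24.6% lower and 30.5% higher in TA. The lists were chosen with earlier results of these data known, and the quiescence genes for being high at rest. The counts therefore describe the listed genes and support nothing further. Of 19 other surface markers of satellite cells, 11 were at least 2-fold lower on activation in EOM and 2 higher, and 11 were lower and 1 higher in TA, with medians of -1.95 and -2.01. Calcr, the calcitonin receptor that helps to hold satellite cells at rest, was 419-fold lower in EOM (267 to 699) and 418-fold in TA (243 to 788). Sdc4, a syndecan, was 35.8-fold and 52.3-fold lower, and Cxcr4, a chemokine receptor, 18.7-fold and 14.7-fold. Itga7, Itgb1, Ncam1 and Met kept within 2-fold in both muscles, as Cdh15 did. Jam3 and Tspan4 were 3.89-fold and 3.19-fold higher in EOM, and Sdc3 was 11.4-fold higher in TA (8.48 to 15.6). Of 20 other quiescence genes, 14 of 18 measured were lower in EOM and 17 of 19 in TA, with none higher and medians of -3.17 and -2.87. Chrdl2, an antagonist of bone morphogenetic proteins, was 433-fold lower in EOM and 111-fold in TA. Col15a1, a collagen, was 256-fold lower in EOM and at least 1733-fold lower in TA, where it had no UMI.

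Among the relatives of each gene the behaviour was mixed. Of 7 cadherin and catenin genes measured in EOM, 3 were lower and 1 higher, and of 6 in TA 2 were lower and 1 higher. Cdh2, N-cadherin, was 69.3-fold higher in activated EOM (1.95 to 135 CPM, interval of the ratio 49.6 to 100) and 39.1-fold higher in TA (4.04 to 158 CPM). Cdh4, R-cadherin, was 411-fold lower in EOM (50.3 to 0.122 CPM), and Cdh13 was lower in both muscles. Of the cadherins at 20 CPM or more, Cdh15 was the only gene within 2-fold in each muscle. The cytoplasmic partners Ctnna1, Ctnnb1 and Ctnnd1 were within 2-fold and Jup was 6.89-fold and 4.11-fold lower. Of the SOCS box and cullin 5 genes, 5 were measured, 0 were lower and 2 were higher in each muscle, which with so few genes is near the shares of all genes: Asb8 was 4.44-fold and 4.09-fold higher, Rnf7, the ring subunit of the ligase, 2.77-fold and 2.95-fold higher, and Cul5, Elob and Eloc were within 2-fold.

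Of the receptors and partners of Apoe, 3 of 5 measured were lower in EOM and 5 of 6 in TA. Sorl1, a sorting receptor for Apoe, was at 25.7 CPM in quiescent and 2.2 in activated EOM, and at 23.3 and 1.03 in TA. Lrp1, a large receptor of the same family, went from 111 to 38.9 and from 71.3 to 27.3 CPM. Of the teneurins and their partners, Adgrl2, a latrophilin, was 3.49-fold higher in activated EOM, Adgrl3 3.59-fold lower there, Flrt2 2.54-fold lower in EOM and 8.13-fold in TA, and Tenm3 4.75-fold lower in TA. Podxl2, of the Cd34 family, was at 23.4 CPM in quiescent and 2.19 in activated EOM. Layn, the relative of Chodl, did not reach 20 CPM.

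The genes most like each of the 6 over the 4 libraries were found by the smallest Euclidean distance, among 6460 genes. It was taken on log2 levels with 1 CPM added, centred on their mean, so levels well under 1 CPM counted as nearly alike. With 4 points this likeness is mostly that of state. Nppc, a natriuretic peptide gene, was nearest to Chodl (distance 0.32) and to Apoe (0.92), at 1193, 885, 0.334 and 0.137 CPM in the quiescent EOM and TA and the activated EOM and TA libraries. Enpp2 was nearest to Cd34 (0.34), at 125, 57.3, 0.00815 and 0.0196 CPM, followed by Ltbp4 (0.41) and Clmn (0.43). Glul was nearest to Tenm4 (0.18), at 523, 813, 39.7 and 24.3 CPM, with Svep1 (0.23) and Csdc2 (0.27) next. Metrnl and Ift20 were nearest to Cdh15 (0.06 each), and Slc39a14 to Asb5 (0.40), at 92.2, 235, 19.7 and 18.1 CPM. Chodl and Apoe were also among each other's nearest genes (1.06).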

How the data were processed

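Single-cell RNA sequencing was read from 4 libraries (EOM and TA, each quiescent and activated). As deposited, the values are unnormalised UMI counts for every gene and cell barcode. The submitters' processing notes name Cell Ranger 3.0.2 and the build mm10. Not given in the sources used here: the annotation release, the rule for calling cells and the number of animals. Of 31055 gene IDs, 31011 matched GENCODE vM21.

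Barcodes with at least 500 genes and at most 10% mitochondrial UMIs were kept. The automatic Scrublet threshold (scanpy 1.11.5) called at most 2 doublets in a library and was not used. The highest scores were removed by rank instead, 0.8% per 1000 barcodes, or 141, 155, 436 and 277 of the barcodes that passed. Each library was clustered (igraph 0.11.9, 2000 variable genes, 30 components, 15 neighbours, resolution 1), and 16 endothelial-like cells of quiescent TA were left out. The kept cells held 17462207, 15349294, 122730850 and 102291754 UMIs. Counts were summed and scaled to CPM, with exact Poisson intervals of ratios, exact Clopper-Pearson intervals of shares, and 3 UMIs as the floor for a count of 0. Called genes are those at least 2-fold apart with at least 20 CPM in either library, and at least 5% of cells in either for shares. The intervals and calls were run on simulated Poisson counts with known changes. These hold no further spread between cells or libraries, so the run checks the calculation only. TMM factors came from edgeR 4.0.16.

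Genes named beside the 6 are the 5 nearest over the libraries and over quiescent cells (Pearson's r), and up to 3 per direction of each list, leaving out ribosomal, mitochondrial, haemoglobin, sex-linked and unnamed genes; list genes within 2-fold, marker genes and Layn were named after their values were seen. The 6 genes, the lists and the tests were chosen with earlier results of these data known. Alternatives were other limits on cells, scalings, depths of thinning and subsets of activated cells.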

Additional observations from a re-analysis of the deposited data

Results flagged for a closer look

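For Cd34, Tenm4, Cdh15 and Asb5 the same contrast lay on opposite sides of 1 in the 2 states or the 2 muscles. Both counting intervals excluded 1 in each case. The share of all genes that do so is not given, so this describes these genes only. Each group was 1 library, and none of these differences was tested. Apoe (1.59 quiescent and 0.911 activated, EOM to TA) and Chodl (1.08 and 0.833) also crossed 1, but their activated intervals included it. Cd34 had an EOM to TA ratio of 1.9 in quiescent cells and 0.412 in activated cells. Its ratio of activation ratios, EOM over TA, was 0.216 (0.148 to 0.316, counting error only). Tenm4 went the other way, with 0.58 in quiescent and 1.88 in activated cells and a ratio of ratios of 3.23 (2.56 to 4.08). Both activated values rest on few UMIs, 41 and 83 for Cd34 and 279 and 124 for Tenm4, at levels that did not exceed those of damaged barcodes, so no order of the muscles is read from them.

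Cdh15 had an activated to quiescent ratio of 1.24 in EOM and 0.848 in TA, and the latter crossed 1 under TMM scaling. Asb5 had an EOM to TA ratio of 0.319 in quiescent and 1.03 in activated cells, and the latter crossed 1 with median-of-ratios scaling, so that it was a difference at rest and near equality after culture.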

How the results depend on the processing

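No paired analysis was possible because each group holds 1 library. Of the recomputed counts of genes past the 2-fold rule, 87 stayed within 1.5 times the reported count. The 3 others were counts that went from 0 to 1: higher in quiescent EOM than TA among cells with 5% to 8% mitochondrial UMIs (1, Cd34; chosen after seeing the data), higher in activated EOM than TA with at most 5% mitochondrial UMIs (1, Cdh15), and lower in activated EOM than TA with no filter on low values (1, Cd34). The limit of 5% left 263, 37, 612 and 489 cells. Of the recomputed single-gene log2 ratios, 206 stayed within counting error, 75 moved further and 1 reversed: Asb5 in activated against quiescent EOM was -1.72 and became 0.46 with mean UMIs per cell and no scaling (chosen after seeing the data). On that scale Cdh15 was at 2.50 in EOM and 1.94 in TA. Removing no doublets changed the clusters, and with them the cells left out as non-muscle, so that 3405 quiescent EOM and 2820 quiescent TA cells were left. Of all genes called between quiescent muscles, 53.3% were higher in EOM, 39.2% with TMM and 38% with median-of-ratios scaling. Of those called on activation, 53% were higher in EOM and 55.4% in TA, 69.7% and 65.9% with TMM. A count of 16 UMIs, as for Chodl in each activated library, limits the precision of its folds.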

Other observations

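Within quiescent cells the 6 genes varied nearly independently of each other. At 2000 UMIs per cell the 15 pairs were found together between 0.85 and 1.17 times as often as their separate shares would give, in 3512 EOM and 2851 TA cells, and Pearson's r of log counts ranged from -0.13 (Apoe and Asb5 in EOM) to 0.11 (Chodl and Apoe in EOM). In sparse counts such values describe weak relations only. Apoe and Asb5 had negative values in both muscles, -0.13 and -0.06, and so had Chodl and Asb5, -0.06 and -0.11.

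Over the same cells the gene with the highest r with Asb5 was Srxn1, sulfiredoxin (0.17 in EOM and 0.38 in TA), at 285 and 633 CPM, followed by Srsf5 and the cytokine receptor gene Tnfrsf12a. Chodl went most with Gas1, a growth arrest gene (0.21 and 0.25), and with Fosb and Jund, transcription factor genes of the immediate early response (0.19 and 0.24 for Fosb). Cdh15 went most with Pax7 (0.07 and 0.14), and Cd34 with Gas1 (0.08 and 0.13).

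Some relatives of the 6 differed by at least 2-fold between the quiescent muscles. Cdh4 was 4.71-fold higher in EOM (3.98 to 5.59), Adgrl3 2.74-fold (2.22 to 3.4) and Sdc3, a syndecan, 7.25-fold (5.31 to 10.1), at 21.2 against 2.93 CPM, while Flrt2 was 0.414 times the TA level (0.365 to 0.469). After culture Sdc3 had 18.7 CPM in EOM and 33.3 in TA, so quiescent TA was the library apart.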
